A study of Homo sapiens with 19 samples.

Results

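The 10 genes described here handle long-chain fatty acids at the point where they enter a cell, are carried through the cytosol and are activated. They are the fatty acid binding proteins FABP1, FABP2, FABP4 and FABP5, the scavenger receptor CD36, the transport proteins SLC27A2 and SLC27A4, and the acyl-CoA synthetases ACSL1, ACSL3 and ACSL5. They were matched by Ensembl identifier, and all 10 were found among the 32732 gene identifiers shared by every OS matrix. They and the pathway lists below were chosen by gene name with earlier results of these data known, so counts among them are descriptive. The samples are human liver organoids made from W01, a wild-type pluripotent stem cell line of WiCell, read as single cells on the 10x 3′ v3 platform. Their 19 libraries form 9 groups, all of the same line. Ultra-low attachment (ULA) plates gave untreated organoids of day 21 (n = 3) and day 34 (n = 2). The orbital shaker (OS) gave day 25 organoids in 7 groups of 2 libraries. One of these groups was untreated. TGFB1 (transforming growth factor beta 1) was given at 10 ng/ml, PA at 500 µM and OA at 500 µM, each beside a control group. Treatment with TGFB1 or PA lasted 5 days per the labels, which do not give the length of the OA treatment. The labels spell out neither PA nor OA, nor what the controls received. In fatty liver models these letters usually stand for palmitic and oleic acid.

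Fatty acids reach the cytosol by diffusion and with the help of membrane proteins such as CD36 and the SLC27 family. Inside, FABP proteins bind them, with FABP1 typical of liver and small intestine, FABP2 of intestinal enterocytes, FABP4 of adipocytes and macrophages, and FABP5 of squamous epithelium and many other tissues. ACSL enzymes join them to coenzyme A, which commits them to storage, membrane lipids or oxidation. Several of these genes are textbook targets of the PPAR family of lipid-sensing nuclear receptors.

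Members that rose together under OA carried unlike promoters, and 3 are printed to show the range, as the 250 bases before the RefSeq start site (GRCh38.p14). FABP1 lies at chr2:88122982-88128062 and FABP2 at chr4:119317250-119322138, both on the minus strand, and ACSL3 lies at chr2:222860942-222944639 on the plus strand (GENCODE v44, GRCh38). The promoter windows are chr2:88128063-88128312 for FABP1, chr4:119322139-119322388 for FABP2 and chr2:222860786-222861035 for ACSL3. Capitals mark the motifs searched, and each line reads 5′ to 3′ along the gene's own strand.
FABP1: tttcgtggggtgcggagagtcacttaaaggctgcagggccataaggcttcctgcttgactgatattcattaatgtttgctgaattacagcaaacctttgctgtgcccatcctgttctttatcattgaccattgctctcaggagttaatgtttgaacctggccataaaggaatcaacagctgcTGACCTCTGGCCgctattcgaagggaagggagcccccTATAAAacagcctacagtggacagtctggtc
FABP2: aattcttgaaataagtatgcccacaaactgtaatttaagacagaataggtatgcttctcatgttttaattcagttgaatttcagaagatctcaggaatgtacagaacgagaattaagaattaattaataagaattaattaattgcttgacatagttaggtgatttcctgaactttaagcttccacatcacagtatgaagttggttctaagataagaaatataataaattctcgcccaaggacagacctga
ACSL3: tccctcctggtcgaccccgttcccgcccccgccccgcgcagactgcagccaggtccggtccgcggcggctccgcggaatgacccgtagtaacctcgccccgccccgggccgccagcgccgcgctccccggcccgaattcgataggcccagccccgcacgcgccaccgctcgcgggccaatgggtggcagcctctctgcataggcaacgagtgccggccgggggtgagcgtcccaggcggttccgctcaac
The letters searched on both strands were TATAAA, the hexamer AGGTCA to which nuclear receptors bind, the repeat of that hexamer with 1 base between the copies (DR1), and a looser DR1 in which the first copy is only GGNCA, so that it contains the hexamer. The looser form was chosen after the FABP1 bases had been seen. In FABP1 it stood on the opposite strand and began 68 bases before the start site, and TATAAA began 31 bases before the start. The looser form occurred in 51 of 35116 RefSeq promoter windows of this length (0.145%), AGGTCA in 12.1% and TATAAA in 10.7%. The full DR1 was in 0.0171% of the windows and in no member's. FABP2 and ACSL3 held none of these letters in this window. Of the 8 members with a window in the table, ACSL5 held AGGTCA once, in 1 of 2 start sites, and CD36 held TATAAA in 2 of 6.

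Base composition split the promoters more plainly than the motifs did. Bases G and C made up 48% of the FABP1 window, 31.2% of that of FABP2, 31.2% to 43.2% of those of CD36, and 48.8% and 50% of those of ACSL5, all under the median of 58.0% over the whole table. They made up 75.2% in ACSL3, 75.2% in SLC27A4 and 64.4% in SLC27A2, all above that median. The 5 ACSL1 windows ranged from 46.8% to 83.6%. The first 4 genes are those with the largest log2 fold changes under OA below, and ACSL3, SLC27A4 and SLC27A2 those with the smaller ones. That split was noticed after the values were seen, describes 7 genes and was not tested.

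Depth and makeup of the libraries set the frame for these values. Kept cells per library numbered 3089 to 12427, with 6880807 to 91184130 UMIs (unique molecular identifiers, each standing for 1 captured molecule). Levels are UMIs of a gene per 1000000 UMIs of the library's kept cells (CPM). PA control replicate 1 had the fewest UMIs in all, with a median of 1747 per cell against 7058 in replicate 2, and TGFB1 control replicate 1 had the lowest median, 1310 per cell against 5635 in replicate 2. No more than 32 cell barcodes were shared by any pair of libraries. The summed CPM of 16 hepatocyte markers ran from 100 to 24991 over the libraries, and that of 13 intestinal epithelial markers from 5.91 to 17268. ALB, the main secreted protein of mature hepatocytes, was at 3.14 to 685 CPM in the OS libraries without TGFB1 and at no more than 0.307 CPM in the TGFB1 and ULA day 34 libraries. Nothing in the labels says whether replicates came from separate cultures, so p-values measure the spread between these libraries, which may be technical.

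Of the 10 genes, 6 had their highest group mean with OA. Against its control, 7 of the 10 genes rose, namely FABP1, FABP2, CD36, SLC27A2, SLC27A4, ACSL3 and ACSL5, and none fell by the test. Over all 19366 genes tested 43.3% passed (edgeR's quasi-likelihood test, Benjamini-Hochberg adjusted p under 0.05), 21.7% higher and 21.6% lower. The median log2 fold change of the 10 was 1.59, beside -0.08 for all genes tested. All 7 rises passed the test in each of 11 alternative analyses. A level summed over a library moves both with the number of cells that express a gene and with the RNA of the gene per cell, and the clusters below are read for that reason. In all 10 genes the OA and control libraries did not overlap, 7 higher and 3 lower, where 32.2% and 53.6% of genes with a mean of at least 1 CPM did so. That count depends on the scaling: with library sizes scaled by TMM (the normalization edgeR uses), a check chosen after seeing the data, 7 were higher and 2 lower, with ACSL1 overlapping, beside 42.7% and 42.5% of genes.

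**Figure D1:**
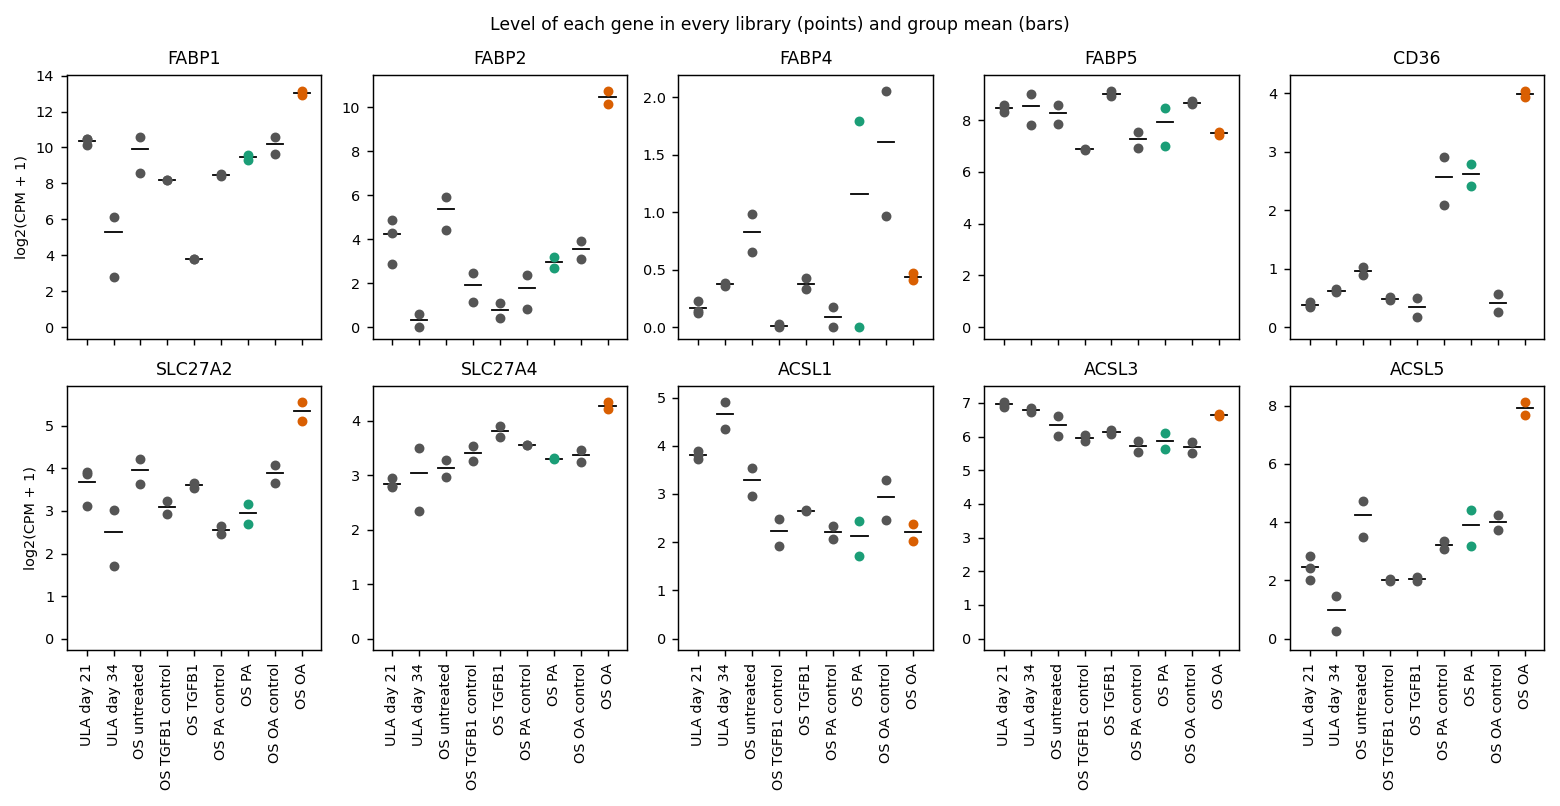
Level of each of the 10 genes, as log2(CPM + 1), in each library (points) and group mean (bars), with PA libraries in green and OA libraries in orange. FABP1, FABP2, CD36, SLC27A2, SLC27A4 and ACSL5 were highest in both OA libraries.

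FABP2, the enterocyte fatty acid carrier, changed most. It was at 1701 and 1121 CPM in OA replicates 1 and 2 and at 14.1 and 7.44 CPM in the controls. Both OA libraries stood far above every other library of the study, the next being untreated replicate 2 at 59.9 CPM. The log2 fold change was 7.35 (SE 0.938, adjusted p = 5.6e-05 in edgeR), and the ratio of group means was 131.

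FABP1, the abundant carrier of liver and gut, was at 9026 and 7823 CPM with OA and at 1558 and 797 CPM in the controls. Untreated organoids spanned 380 to 1545 CPM, so the controls lay around that range and the OA libraries above it. Its log2 fold change was 3.15 (SE 0.556, adjusted p = 6.0e-04 in edgeR).

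CD36, the uptake receptor, was at 15.4 and 14.2 CPM with OA, 831 and 741 UMIs, and at 0.197 and 0.474 CPM in the controls, 11 and 25 UMIs. This was a rise of 5.81 on the log2 scale (SE 0.497, adjusted p = 3.6e-06 in edgeR). The transporter SLC27A2, which also activates very long chain fatty acids in peroxisomes and the endoplasmic reticulum, was at 45.9 and 33.7 CPM with OA and at 16.0 and 11.7 CPM in the controls (log2 fold change 1.85, SE 0.31, adjusted p = 4.1e-04 in edgeR). SLC27A4, the transport protein of the intestinal epithelium, was at 19.2 and 17.5 CPM against 8.49 and 10.1 CPM (1.32 on the log2 scale, SE 0.202, adjusted p = 2.0e-04 in edgeR).

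Of the synthetases, ACSL5, found in intestine and liver, was at 275 and 206 CPM with OA and at 17.9 and 12.3 CPM in the controls. It rose by 4.31 on the log2 scale (SE 0.504, adjusted p = 2.9e-05 in edgeR). ACSL3, which sits on the endoplasmic reticulum and on lipid droplets, was at 101 and 95.9 CPM against 44.9 and 55.7 CPM (log2 fold change 1.32, SE 0.224, adjusted p = 4.7e-04 in edgeR). ACSL1, the leading synthetase of adipose tissue and liver, was at 4.22 and 3.04 CPM against 4.51 and 8.84 CPM, a difference of -0.52 (SE 0.357) that did not pass (adjusted p = 0.265 in edgeR).

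The other 2 binding proteins among the members, FABP5 and FABP4, stood lower with OA, without passing the test. FABP5 was at 183 and 172 CPM with OA and at 389 and 420 CPM in the controls (log2 fold change -0.85, SE 0.371, adjusted p = 0.0808 in edgeR). FABP4 was at 0.388 and 0.325 CPM, or 21 and 17 UMIs, against 3.15 and 0.949 CPM, or 176 and 50 UMIs (-2.22, SE 1.0, adjusted p = 0.0893 in edgeR). In 3 of 11 alternatives FABP5 passed, and in 4 of 11 FABP4 did, always lower.

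PA at the same concentration gave no gene of the 10 that passed the test, and over all genes 0.0465% passed (9 of 19366). FABP1 was at 636 and 761 CPM with PA and at 364 and 338 CPM in its controls, so that both PA libraries were higher (log2 fold change 1.04, SE 0.519, adjusted p = 1.00 in edgeR). FABP2 was at 5.38 and 8.0 CPM against 4.21 and 0.751 CPM (1.95, SE 0.913), a log2 fold change that was 3.29 without control replicate 1 and 0.68 without control replicate 2. SLC27A2 was at 5.42 and 7.98 CPM against 4.51 and 5.30 CPM. These 3 were the members with both PA libraries above both controls, and SLC27A4 was the 1 with both below, at 8.99 and 8.81 CPM against 10.8 CPM in each control. Over genes with a mean of at least 1 CPM, 6.92% were likewise higher and 14% lower, and 13% and 7.65% with TMM library sizes, under which these 4 members kept their places. All 11 mesenchymal markers were lower with PA, none passing the test (median log2 fold change -0.74, beside 0.02 over all genes). Mesenchymal-like cells made up 5.26% and 8.70% of PA cells and 7.89% and 18.4% of control cells, and their part was not tested.

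PA replicate 2 set several of the other PA values. FABP4 was at 2.47 CPM there (144 UMIs, in 0.279% of 8249 cells) and had no UMI in PA replicate 1, no UMI in control replicate 1 and 6 UMIs in control replicate 2. FABP5 was at 354 CPM in PA replicate 2 and at 128 CPM in replicate 1, with 119 and 187 CPM in the controls. ACSL5 was at 20.2 and 8.02 CPM in replicates 2 and 1, with 7.41 and 9.09 CPM in the controls. Without PA replicate 2, the log2 fold changes of FABP4, FABP5, ACSL1 and ACSL3 turned to -5.10, -0.19, -0.57 and -0.03. CD36 (5.92 and 4.33 CPM against 6.54 and 3.24 CPM), ACSL1 (2.27 and 4.41 CPM against 4.07 and 3.20 CPM) and ACSL3 (48.7 and 67.2 CPM against 45.5 and 57.8 CPM) overlapped between PA and control. In edgeR 540 genes had an unadjusted p under 0.05 for PA. DESeq2 called 52 genes for PA, none of them a member. With no filter on low counts edgeR called 162, among them FABP2 (1.96, adjusted p = 8.4e-06) and FABP4 (3.68, adjusted p = 1.1e-05).

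The difference between the effects of OA and PA was tested directly, since each has its own control. It passed for 7 genes, 5 more positive and 2 more negative under OA, where 20.5% of all genes did (10.2% and 10.3%). CD36 differed by 5.61 (SE 0.635, adjusted p = 1.4e-04 in edgeR), FABP2 by 5.40 (SE 1.212, adjusted p = 0.00779), ACSL5 by 3.48 (SE 0.659, adjusted p = 0.00300), SLC27A4 by 1.54 (SE 0.289, adjusted p = 0.00286) and ACSL3 by 1.09 (SE 0.314, adjusted p = 0.0264), all more positive under OA. FABP5 differed by -1.58 (SE 0.525, adjusted p = 0.0496) and FABP4 by -5.89 (SE 1.713, adjusted p = 0.0263), more positive under PA. The first 4 passed in all 15 alternatives. FABP5 passed in 5 of 15, with the value reaching -0.66 (adjusted p = 0.263) without PA replicate 2. FABP4 passed in 8 of 15. Without PA replicate 2 it changed sign, to 2.88, but the PA library then left had no FABP4 UMI, so the size is not reliable. ACSL3 passed in 9 of 15. FABP1 and SLC27A2 missed the threshold at 2.11 (SE 0.733, adjusted p = 0.0587) and 1.34 (SE 0.45, adjusted p = 0.0506), though SLC27A2 passed in 7 and FABP1 in 5 alternatives. OA and PA matrices list different numbers of genes (36601 and 33538), and headers of the OA matrices name Cell Ranger 6.0.2. Each effect was taken against its own control, but the controls were unlike. Mesenchymal markers summed to 2834 to 4595 CPM in OA control and to 449 to 745 CPM in PA control. Hepatocyte markers summed to 9376 to 12988 CPM and to 18556 to 24437 CPM. In the PA experiment CD36 was read mostly in a cluster led by hormone and neuroendocrine genes. With OA it was read in clusters that held few control cells, as given below, so its difference does not compare like cells. PA lasted 5 days, while the length of the OA treatment is not given. The part of these points in the differences was not tested.

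**Figure D2:**
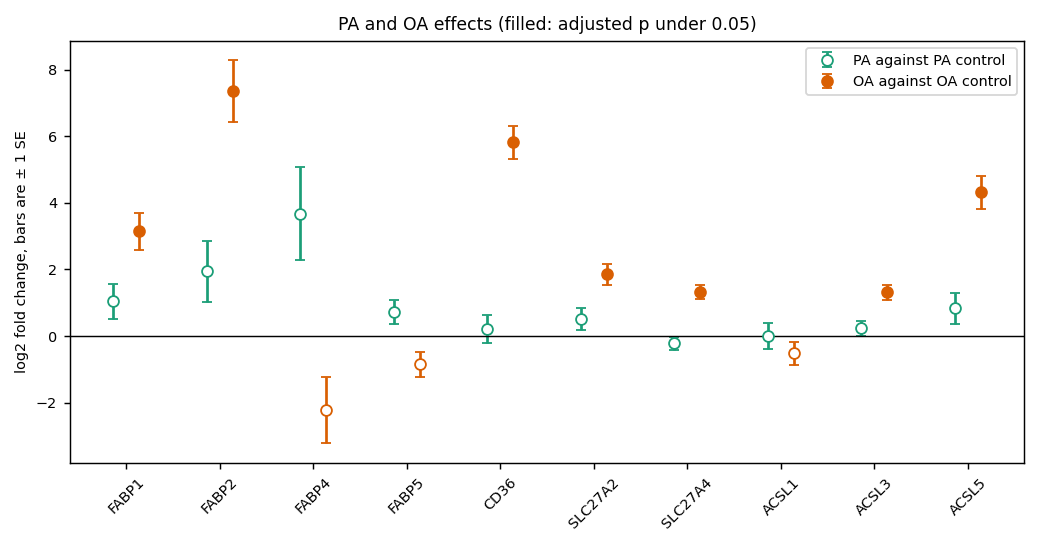
Log2 fold change of each gene for PA (green) and OA (orange) against its own control, with bars of ± 1 SE and filled circles where the adjusted p was under 0.05. OA values run from -2.22 (FABP4) to 7.35 (FABP2), and no PA value passed.

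TGFB1 moved 2 of the binding proteins in opposite directions. FABP1 fell from 290 CPM in each control library to 12.6 and 13 CPM (log2 fold change -4.31, SE 0.59, adjusted p = 2.2e-04 in edgeR). FABP5 rose from 114 and 118 CPM to 555 and 483 CPM (2.35, SE 0.387, adjusted p = 9.1e-04 in edgeR), the highest group mean of FABP5 in the study. Both held in all 12 alternatives. SLC27A4 also passed (12.1 and 14 CPM against 10.6 and 8.55 CPM, log2 fold change 0.66, SE 0.203, adjusted p = 0.0345 in edgeR), but in only 5 of 12 alternatives, and not when any of the 4 libraries was left out (adjusted p from 0.0867 to 0.188). The other 7 did not pass, where 22.2% of all genes did. Of these, FABP4 (4.21, adjusted p = 0.148 in edgeR) passed in 4 of 12 alternatives, SLC27A2 (0.74, adjusted p = 0.105) in 3 and FABP2 (-1.90, adjusted p = 0.135) in 2, with FABP2 between -3.03 and -0.40. Of the markers, all 10 proliferation ones fell (median log2 fold change -3.68), as did 7 of 13 for intestine and 7 of 15 tested for hepatocytes, with 1 hepatocyte marker higher. The summed hepatocyte list overlapped, at 3252 to 4944 CPM in the controls and 4685 to 5505 CPM with TGFB1. Of the 11 mesenchymal markers 5 rose, and their part in these values was not tested beyond the clusters below. Both TGFB1 libraries lay above both controls in 6 of the 10 genes and below them in 2, beside 24.7% and 44.7% of genes with a mean of at least 1 CPM. FABP4, 1 of the 6, lay under that mean (0.298 CPM with TGFB1 against 0.00956 CPM in the controls). With TMM library sizes FABP2 overlapped, leaving 1 below, and the shares were 33.0% and 34.3%. FABP4 was at 0 and 1 UMI in the controls and at 15 and 10 UMIs with TGFB1.

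On ULA plates, FABP1 was at 1431, 1137 and 1444 CPM on day 21 and at 5.90 and 69.6 CPM on day 34 (log2 fold change -5.27, SE 1.014, adjusted p = 0.0165 in edgeR). FABP2 was at 18.5, 6.27 and 28.6 CPM and then at 0.0128 and 0.526 CPM, or 1 and 48 UMIs (-6.11, SE 1.114, adjusted p = 0.0138 in edgeR). In both genes the day 34 libraries lay below all 3 of day 21. Of the 10 members 5 were lower in this way and 3 higher, beside 18.7% and 34.5% of genes with a mean of at least 1 CPM. Of those higher, FABP4 (0.297 CPM on day 34 against 0.120 CPM on day 21) and CD36 (0.542 against 0.301 CPM) lay under that mean. With TMM library sizes the counts of members were the same, beside 25.8% and 26.0% of genes. ACSL1 was at 13, 12.3 and 13.8 CPM and then at 19.4 and 28.8 CPM (0.76, SE 0.204, adjusted p = 0.0459 in edgeR), the highest levels of ACSL1 anywhere in the series. FABP1, FABP2 and ACSL1 were the 3 members called by the test, where 15.6% of 22261 genes were (8.43% higher and 7.19% lower). All 10 squamous markers rose from day 21 to day 34, while 10 of 13 intestinal, 7 of 15 hepatocyte, 6 of 10 proliferation and all 4 tested pluripotency markers fell, and their part was not tested. The day 34 libraries also differed from each other: squamous-like cells made up 0.994% of replicate 1 and 42.5% of replicate 2, and hepatocyte-like cells 0.925% and 8.49%, where FABP1 was at 5.90 and 69.6 CPM. Per the labels' protocol the day 34 organoids also had a further wash and trypsin step, which cannot be told apart from culture time. The sizes and calls depended on which libraries entered. Without day 34 replicate 2 the log2 fold changes were -7.97 for FABP1 and -10.41 for FABP2, and without day 34 replicate 1 they were -4.38 and -5.20. Over cells with at least 1000 genes and at most 10% mitochondrial UMIs, FABP2 was at -4.45. Without day 21 replicate 1, 2 or 3, FABP1 had an adjusted p of 0.0617, 0.0528 or 0.0796. FABP2 missed without day 21 replicate 1 (0.0604) or 3 (0.0789). ACSL1 missed without any day 21 library (0.168, 0.139 and 0.124), without day 34 replicate 2 (0.12) or with doublets removed (0.0507). With the replicate number as a block, which nothing shows to pair these libraries, no gene passed, and the adjusted p was 0.119 for FABP1, 0.157 for FABP2 and 0.228 for ACSL1. Without day 34 replicate 2, the log2 fold changes of ACSL5, SLC27A2, FABP5 and SLC27A4 were -4.68, -2.54, -0.79 and -0.76. The sign of SLC27A4 was then opposite to that over all libraries. Without day 34 replicate 1, ACSL5 was at -1.48. Over the 11 alternatives ACSL5 and SLC27A2 passed in 3 each, and FABP5 and SLC27A4 in 1 each.

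Ordered by group mean, the members fell into differing sequences. FABP1 ran from OA (8425 ± 850 CPM, SD, n = 2) through ULA day 21 (1337 ± 173, n = 3), OA control (1178 ± 538), untreated (962 ± 824), PA (699 ± 89.0), PA control (351 ± 18.6), TGFB1 control (290 ± 0.194) and ULA day 34 (37.7 ± 45) to TGFB1 (12.8 ± 0.318). The libraries of ULA day 21, OA control and untreated overlapped one another, while those of OA stood apart from every group. FABP2, SLC27A2 and ACSL5 also had OA first and untreated next, at 40.0, 14.5 and 17.9 CPM in the latter. FABP5 ran from TGFB1 (519 ± 50.8 CPM) and OA control (405 ± 21.9) down to OA (177 ± 7.30), PA control (153 ± 48.1) and TGFB1 control (116 ± 2.54). ACSL3 varied least, from 123 ± 5.35 CPM on ULA day 21 to 50.3 ± 7.66 CPM in OA control. CD36 was at 4.89 ± 2.33 CPM in PA control and 5.12 ± 1.13 CPM in PA, above the 0.336 ± 0.196 CPM of OA control, although all 3 groups are day 25 OS organoids. ULA matrices list 13 FABP5 pseudogenes that the OS matrices do not. Their UMIs came to 0.122% to 0.389% of those of FABP5, so reads shared with these copies could be counted differently in the 2 sets.

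Where in the organoids the genes were read was examined in clusters built without the 10 genes or the pathway lists, and named only from fixed markers. In the OA experiment, OA cells lay mostly in cluster 10 (53.5% and 39.5% of the cells of replicates 1 and 2, against 0.605% and 0.452% in the controls) and cluster 9 (22.1% and 43.7% against 0.55% and 0.388%). Cluster 10 was led by APOA4, FABP2, KRT20, APOC3 and RBP2, and with 4 hepatocyte and 4 intestinal markers among its 50 leading genes it took no name. Among its 10 leading genes 3 were intestinal markers and 1 was a hepatocyte marker. Cluster 9 was led by OLFM4, CXCL8, PSCA, TFF2 and TFF1 and was also unnamed. Cells of the main mesenchymal-like cluster, number 13, led by MGP, COL6A3 and COL1A1, made up 0.842% and 0.558% of OA cells and 26.2% and 28.9% of control cells. All 11 mesenchymal markers fell under OA, from a summed 2834 to 4595 CPM in the controls to 106 to 135 CPM.

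Within cluster 10, FABP1 was at 11050 and 10773 CPM in the OA libraries, FABP2 at 2301 and 1791 CPM, ACSL5 at 349 and 305 CPM, SLC27A2 at 52.7 and 41.3 CPM and CD36 at 17.6 and 16.4 CPM. FABP5 was at 50.7 and 43.8 CPM there, lower than in cluster 9 (283 and 365 CPM) or in the squamous-like cluster 19 (2049 and 421 CPM). CD36 was as high in cluster 9 (19 and 13.4 CPM), where FABP2 was at only 69.4 and 8.79 CPM. FABP2 was thus concentrated in cluster 10, and CD36 was spread over clusters 9 and 10. The mesenchymal-like cluster 13 held FABP1 at 20.1 and 8.71 CPM in the controls, but FABP4 at 17.5 and 3.39 CPM, and 154 of the 176 FABP4 UMIs of control replicate 1.

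**Figure D3:**
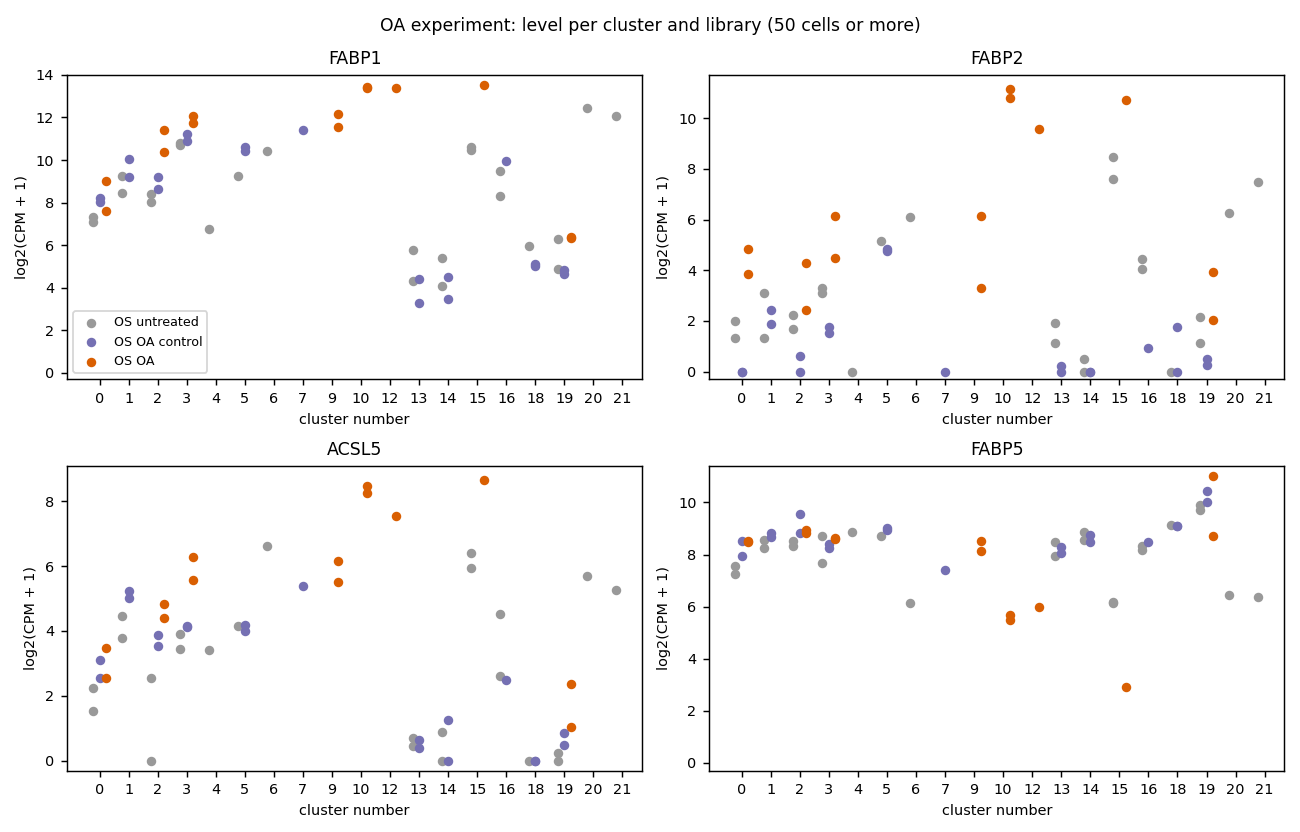
Level of FABP1, FABP2, ACSL5 and FABP5, as log2(CPM + 1), in each cluster of the OA experiment for untreated (grey), OA control (purple) and OA (orange) libraries with at least 50 cells in the cluster. In cluster 10 only OA libraries have 50 cells, with FABP1 at 11050 and 10773 CPM.

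Clusters 0, 2, 3 and 19 held at least 50 cells in both OA and both control libraries, which allows the same cluster to be read on both sides. They hold only 18.8% and 12.4% of the cells of the OA libraries, and 44.5% and 40.4% of those of the controls. In cluster 3, led by MMP1, PLA2G2A and HMGA1, FABP1 was at 3460 and 4348 CPM with OA and at 2386 and 1910 CPM in the controls. ACSL5 there was at 76.5 and 46.7 CPM against 16.9 and 16.3 CPM, SLC27A4 at 17.6 and 17.5 CPM against 8.31 and 8.0 CPM, and FABP2 at 70.2 and 21.4 CPM against 1.88 and 2.42 CPM. The OA libraries were above the controls in 4 of the 4 clusters for FABP2 and ACSL3, in 3 for FABP1 and ACSL5, in 2 for SLC27A4 and in 1 for CD36 and for SLC27A2. ACSL1 was higher in 1 and lower in 1, and FABP4 separated in none. Of the genes with a mean of at least 1 CPM, 7.37% were higher in all 4 clusters, 16.3% in at least 3, 29.4% in at least 2 and 53.1% in at least 1, so separation in 1 or 2 clusters was common. In the squamous-like cluster 19, a cell type that lacks FABP1 and FABP2, these stood at 79.3 and 82.9 CPM (FABP1) and 14.2 and 3.15 CPM (FABP2) with OA, against 27.6 and 24.0 CPM and 0.400 and 0.201 CPM in the controls. The level read in cells that should lack the genes, which RNA free in the droplets can give, was thus higher with OA too, and its part in the other clusters was not tested. FABP5 did not separate OA from control in clusters 0, 2 and 19 and was higher with OA in cluster 3 (384 and 394 CPM against 342 and 300 CPM).

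Outside mesenchymal-like clusters, 41.6% of 18011 genes passed for OA (21.9% higher and 19.7% lower), and the same 7 genes were higher. This test was fitted on the OA, OA control and untreated libraries alone. Its adjusted p-values therefore differ from those over all cells in the libraries used as well as in the cells. Leaving those clusters out did not level the markers: 10 of 11 mesenchymal markers were still lower with OA (median log2 fold change -3.79, beside -0.06 over all genes) and all 10 proliferation markers were, while 7 of 13 intestinal and 8 of 15 tested hepatocyte markers were higher. FABP1 rose by 2.81 (SE 0.692, adjusted p = 0.0191 in edgeR), FABP2 by 7.05 (SE 0.736, adjusted p = 0.00131), CD36 by 5.51 (SE 0.377, adjusted p = 7.3e-04), ACSL5 by 3.97 (SE 0.499, adjusted p = 0.00205), SLC27A2 by 1.5 (SE 0.293, adjusted p = 0.00857), ACSL3 by 1.35 (SE 0.176, adjusted p = 0.00227) and SLC27A4 by 1.34 (SE 0.198, adjusted p = 0.00337). FABP5 fell by 1.00 (SE 0.215, adjusted p = 0.0119). The FABP4 difference was -0.69 (SE 1.201, adjusted p = 0.663), beside -2.22 over all cells. FABP1 lost its call without OA control replicate 2 (2.34, adjusted p = 0.128), OA replicate 1 (2.69, 0.0764) or OA replicate 2 (2.95, 0.0547). SLC27A2 lost it without OA control replicate 2 (1.23, 0.0795) or OA replicate 1 (1.25, 0.0587), and FABP5 without any of the 4 libraries (adjusted p from 0.0527 to 0.0907).

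In shares of cells, each cell thinned to 1500 UMIs, 36.4% and 25.0% of OA cells had a FABP2 UMI, against 0.494% and 0.536% of control cells. The share in squamous-like cells of the OA libraries was 2.60% of 154 cells and 0 of 94 cells, which allows up to 3.19%. Median depths before thinning were 8122 and 6800 UMIs in these and 9689 and 7555 UMIs over all OA cells. For FABP1 the shares were 77.5% and 79.3% against 39.1% and 20.0%, with 14.9% in the squamous-like cells of each OA library. For ACSL5 they were 23.1% and 14.9% against 1.68% in each control, and 0.649% and 0 of 94 in squamous-like OA cells. For CD36 they were 1.88% and 1.21% against 0.0215% and 0.0715%, with 0 of 154 and 0 of 94 squamous-like cells, which allows up to 1.95% and 3.19%, so that the thinned CD36 shares are not separated from that limit. Unthinned, CD36 was in 11.4% and 7.79% of OA cells, 0.165% and 0.517% of control cells, and 0 of 166 and 1 of 100 squamous-like OA cells. Without thinning, FABP2 was in 50.9% and 36.1% of OA cells and in 1.89% and 1.65% of control cells. Between 270 and 802 cells per library were shallower than 1500 UMIs and were left out.

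In the PA experiment FABP1 could be read on both sides in 9 clusters. In all 7 clusters with at least 50 cells in each of the 4 libraries, both PA libraries were above both controls, as were 0.119% of genes with a mean of at least 1 CPM. These clusters come from the same 4 libraries and are not independent readings. That share includes genes far lower than FABP1, which with few UMIs can seldom separate in every cluster. In cluster 5, with 1 control library, FABP1 was at 204 and 99.2 CPM with PA and at 29.5 CPM in the control (4 UMIs). In cluster 6, with 1 library a side, it was at 383 CPM with PA and at 526 CPM in the control. Cluster 1, led by PHGR1, TFF2, APOC3, APOA2 and APOA4, took the hepatocyte-like name. It had 9 hepatocyte and 6 intestinal markers among its 50 leading genes. FABP1 was at 2656 and 2842 CPM with PA in it, against 1335 and 1241 CPM in the controls. In squamous-like cluster 7 FABP1 was at 16.1 and 35.0 CPM against 6.0 and 4.51 CPM, so the level read in cells that should lack the gene moved in the same direction, and the part of free RNA was not tested. SLC27A2 and ACSL5 were higher with PA in 4 of these 7 clusters, FABP2 and ACSL3 in 2, and SLC27A4 was lower in 3. Over genes, 2.81% were higher in at least 4 of the 7, 19.5% in at least 2, and 10.5% were lower in at least 3. The test within cluster 1 gave FABP1 a log2 fold change of 1.11 (SE 0.287, adjusted p = 0.336 in edgeR) and FABP2 2.05 (SE 0.565, adjusted p = 0.45), with none of the 9 members tested passing, beside 0.142% of 12657 genes. Over 6 alternatives the FABP2 log2 fold change there ran from 0.82 to 3.34, and whether it passed depended on the setting. Without PA replicate 1, the log2 fold changes of ACSL5 and FABP5 were 1.44 and 1.01. Outside mesenchymal-like clusters none of 9 passed either, beside 0.102% of 16629 genes, with FABP1 at 0.96 (SE 0.265, adjusted p = 0.756). In that comparison the FABP2 log2 fold change was 3.18, 2.24 and 1.55 without control replicate 1, PA replicate 1 or PA replicate 2. Without PA replicate 1, those of FABP1, FABP5 and ACSL5 were 1.11, 1.28 and 1.27. Calls of members changed in such fits. Each left a group with 1 library, so these calls cannot be set beside the shares above.

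CD36 in the PA experiment was read mostly in cluster 8, led by the hormone and neuroendocrine genes CHGA, SCG2, SST and GHRL. That cluster held 42 of 45 and 111 of 147 CD36 UMIs in the controls and 127 of 141 and 184 of 252 with PA. It was at 163 and 101 CPM in that cluster in the controls and at 147 and 137 CPM with PA, and at no more than 4.50 CPM in any other cluster and library. FABP5 was highest in squamous-like cluster 7, at 744 and 1718 CPM in the controls and 1497 and 3181 CPM with PA. ACSL1 was also high in clusters 7 (25.1 to 48 CPM) and 8 (9.70 to 24.7 CPM). Of the 144 FABP4 UMIs of PA replicate 2, 87 were in mesenchymal-like cluster 4, at 25.5 CPM, and 47 in cluster 1.

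**Figure D4:**
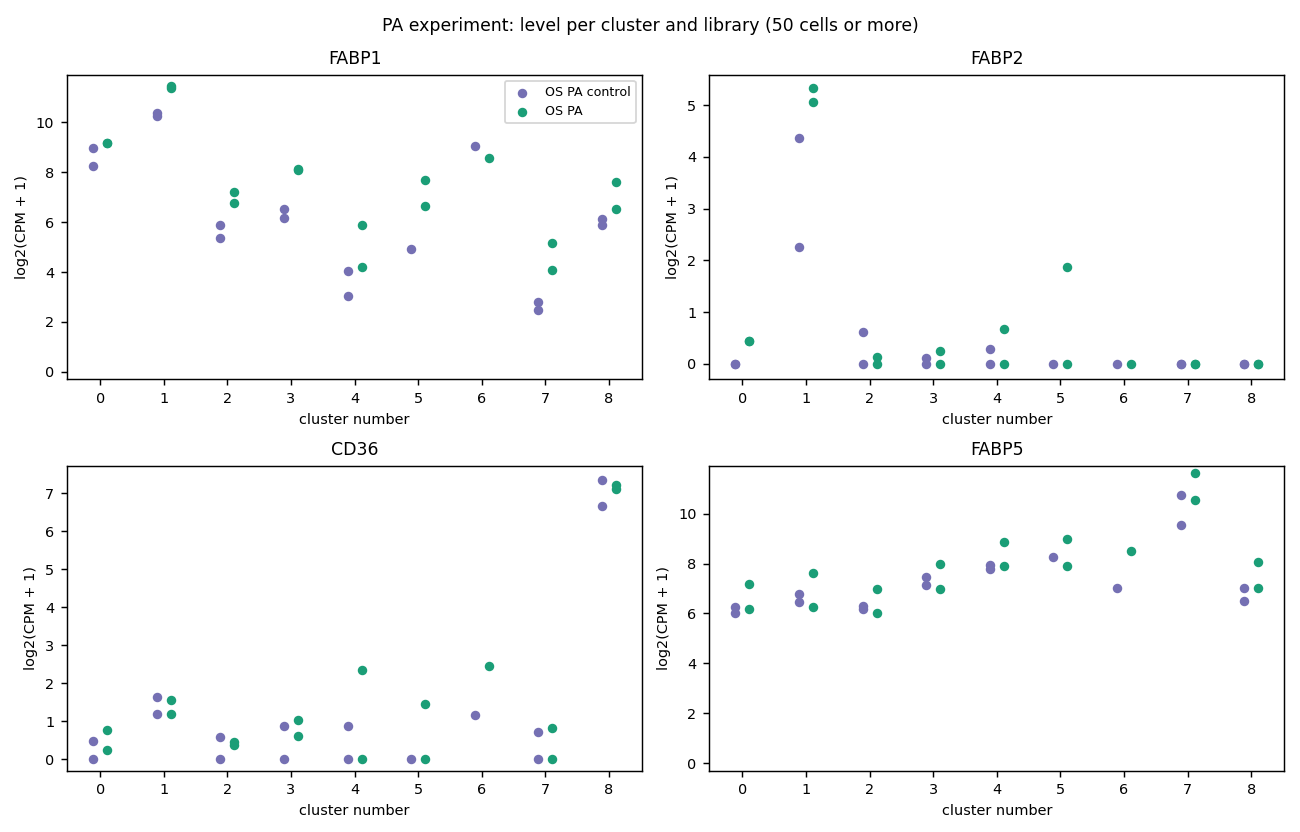
Level of FABP1, FABP2, CD36 and FABP5, as log2(CPM + 1), in each cluster of the PA experiment for PA control (purple) and PA (green) libraries with at least 50 cells in the cluster. CD36 stands at 101 to 163 CPM in cluster 8, and FABP5 is highest in cluster 7.

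Under TGFB1 the level of FABP1 within its main cluster overlapped between treated and control libraries. Hepatocyte-like cluster 3, where 1024 and 1716 control cells and 56 and 71 TGFB1 cells fell, held FABP1 at 1493 and 1062 CPM in the controls and at 1133 and 1005 CPM with TGFB1. Its 50 leading genes held 8 hepatocyte and 5 intestinal markers, with FABP1, TFF3, AFP, APOA4 and MUC13 first. That cluster held 10.7% and 20.2% of control cells and 0.933% and 1.03% of TGFB1 cells. Of the 3 clusters with at least 50 cells in all 4 libraries, FABP1 was lower with TGFB1 in the other 2. Of genes with a mean of at least 1 CPM, 24.2% were lower in at least 2. The 3 clusters hold 18.8% and 82.9% of control cells and 9.46% and 12.3% of TGFB1 cells. The controls differed from each other: cluster 0 held 68.1% and 2.33% of their cells, and cluster 2 held 4.30% and 58.8%. Most TGFB1 cells (68.0% and 68.6%) lay in unnamed cluster 7, against 0.437% and 2.75% of control cells. In mesenchymal-like cluster 1, FABP5 was at 119 and 226 CPM in the controls and at 465 and 310 CPM with TGFB1. It was higher with TGFB1 in 2 of the 3 clusters, and 11.6% of genes with a mean of at least 1 CPM were higher in at least 2. On ULA plates, hepatocyte-like cluster 5 held FABP1 at 3881, 4477 and 3813 CPM on day 21 and at 547 CPM in day 34 replicate 2. The other day 34 library had 40 cells there, under the minimum of 50. At leiden resolution 1.0 the cells of this cluster parted largely by day: 1 hepatocyte-like cluster held 1250, 668 and 1300 day 21 cells and 142 of day 34 replicate 2, and another, led by NPW, PLA2G2A and LCN2, held 3, 6 and 9 day 21 cells and 910 of that library. The values within cluster 5 thus do not compare like cells of the 2 days.

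Beyond the 10 members, relatives of the same families moved in both directions under OA. Of 14 tested among 17 listed, 6 rose and 3 fell, where 21.7% of all genes rose and 21.6% fell. FABP6, the ileal bile acid binding protein, was at 1301 and 72.1 CPM with OA and at 2.20 and 1.80 CPM in the controls (log2 fold change 8.76, SE 1.493, adjusted p = 4.6e-04 in edgeR), with the OA libraries far apart. ACSL4, which prefers arachidonic acid, was at 78.7 and 82.0 CPM against 17.2 and 21.9 CPM (2.38, SE 0.164, adjusted p = 1.0e-06). FABP3, the carrier of heart and muscle, rose by 2.06 and the peroxisomal lipid carrier SCP2 by 1.57. SLC27A5, the bile acid and fatty acid activating enzyme of mature hepatocytes, was at 3.72 and 4.77 CPM against 12.1 and 12.9 CPM (-1.22, SE 0.311, adjusted p = 0.00667). FABP7, the brain carrier, fell by 2.89. Under PA none of the 14 passed: FABP6 was at 0.378 and 5.15 CPM against 0.291 and 0.177 CPM, ACSL4 at 31.8 and 28.5 CPM against 20.9 and 24.7 CPM, and SLC27A5 at 20.0 and 11.8 CPM against 22.4 and 13.9 CPM.

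At the RNA level, most genes listed for the steps after activation rose as well. Of 18 genes of oxidation and storage, 16 rose with OA and none fell, with a median log2 fold change of 1.64, beside 21.7% and 21.6% of all genes and a median of -0.08 over them. The largest were CREB3L3, a liver and gut transcription factor of lipid metabolism (4.48), DGAT2, which makes triglyceride (3.95), CPT1A, which admits fatty acids to mitochondria (3.46), the lipid droplet coats PLIN4 (2.99) and PLIN2 (2.70), and PDK4, which spares glucose (2.79). PLIN2 was at 915 and 846 CPM with OA and at 169 and 173 CPM in the controls. ANGPTL4 (-0.81, adjusted p = 0.272) and GPAM (-0.15, adjusted p = 0.582) did not pass. Among 9 regulators, PPARA (1.44) and PPARG (1.17) rose, and FOXA2, a pioneer factor of endoderm, fell by 1.08. Over all genes 21.7% rose and 21.6% fell, so 2 of 9 higher is near the share over all genes. HNF4A, CDX2, PPARD, PPARGC1A, RXRA and SREBF1 did not pass. With PA none of the 18 or the 9 passed, and the median of the 18 was 0.15, beside 0.02 over all genes. PLIN2 was at 351 and 235 CPM against 147 and 172 CPM (0.94, SE 0.303, adjusted p = 1.00).

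Markers of other cell types moved with these lists under OA. Of 13 intestinal markers 11 rose, from a summed 1740 to 3226 CPM in the controls to 13888 to 17268 CPM, and 9 of 15 tested hepatocyte markers rose, from 9376 to 12988 CPM to 24262 to 24991 CPM. All 10 proliferation markers fell, from 567 to 605 CPM to 165 to 180 CPM. The adipocyte list rose from 11.3 to 14.7 CPM to 133 to 156 CPM, carried by CIDEC (118 and 102 CPM) and GPD1 (38.2 and 30.3 CPM), while ADIPOQ, PLIN1 and LEP had no UMI in either OA library. The summed macrophage list was at 425 to 576 CPM in the controls and 528 to 542 CPM with OA, where PTPRC, CD14, C1QA, C1QB and TYROBP had no UMI. The part of cell makeup in the rises of the 10 genes was not tested beyond the values within clusters given above. For the relatives, the oxidation and storage genes and the regulators it was not tested.

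**Figure D5:**
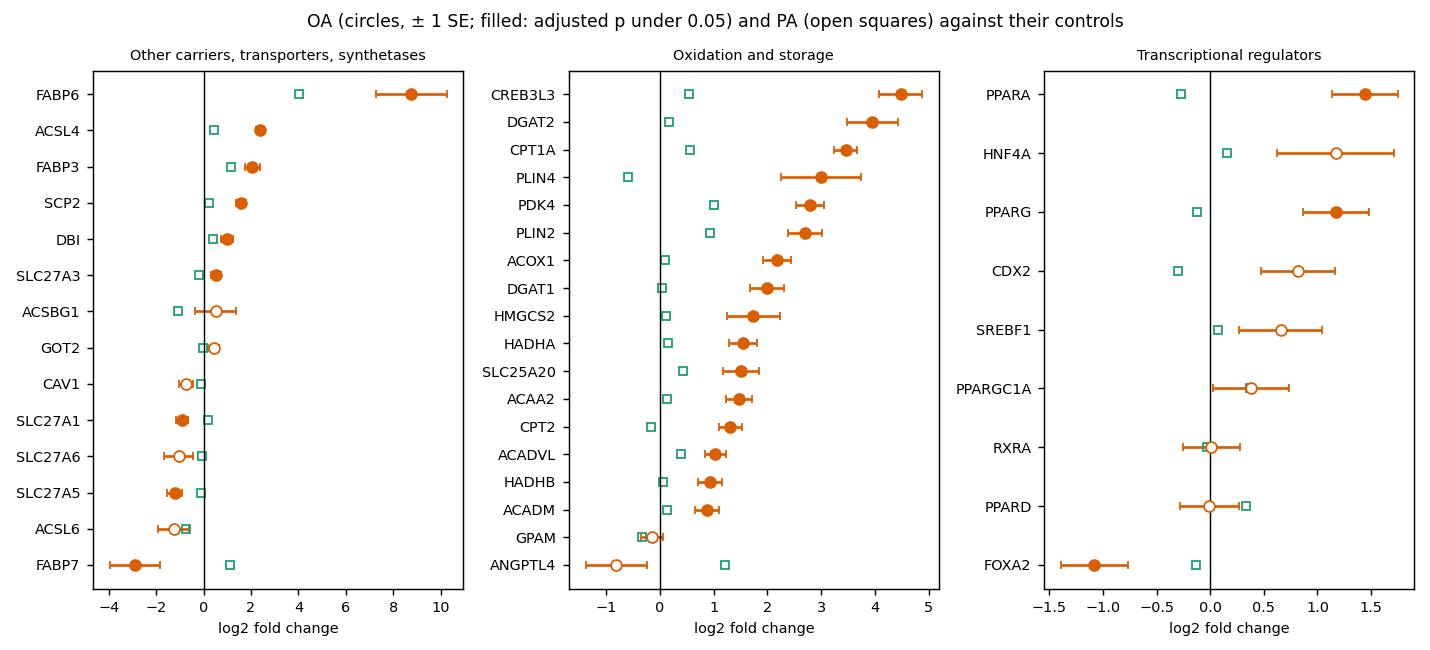
Log2 fold changes of the related family members, of oxidation and storage genes and of regulators for OA (orange circles with ± 1 SE, filled where the adjusted p was under 0.05) and PA (green squares) against their controls. Under OA 16 of 18 oxidation and storage genes are filled and higher, led by CREB3L3 at 4.48.

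Across the 19 libraries, the genes whose log2(CPM + 1) followed each member most closely were listed among 8951 genes with a mean of at least 10 CPM. For FABP2 they were AADAC, KRT20 and CREB3L3 (Pearson's r = 0.98, 0.97 and 0.96), for FABP1 CAPN8, IHH and AGR2 (0.96, 0.96 and 0.95) and for ACSL5 IL2RG, SMIM31 and CIDEC (0.97 each). For CD36 they were PDCD10, AKR1C1 and GUCA2A (0.94, 0.92 and 0.90), for SLC27A2 FDX1, AGPS and SCP2 (0.92 each) and for SLC27A4 PCDH1, LRRC1 and SERINC2 (0.89, 0.87 and 0.86). ACSL1 was followed by PTPN13, RNF217 and WNT5A (0.95, 0.94 and 0.94), ACSL3 by ODR4, UCHL5 and MMADHC (0.92, 0.90 and 0.89), FABP5 by BLOC1S2, REXO2 and TMEM167A (0.84, 0.83 and 0.83) and FABP4 by MORC4, MMP9 and SPRR3 (0.66, 0.63 and 0.60). These points share experiments, controls and depth, and the values describe these libraries with no test.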

How the data were processed

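The files the authors deposited hold 1 matrix per library, with the raw count of UMIs for every gene in every called cell. Per the submitters' processing notes, Cell Ranger 3.0.2, bcl2fastq, Scanpy and GRCh38 were used, while 6 matrices (OA with its control, and untreated) carry Cell Ranger 6.0.2 in their file headers. Groups came from the sample titles. Cells under 500 genes or over 20% mitochondrial counts were left out, and the rest were summed per library, since libraries, not cells, are the replicates. Genes were tested with edgeR 4.0.16 (TMM, filterByExpr, quasi-likelihood, Benjamini-Hochberg threshold 0.05), with 1 fit over the 14 OS libraries and another over the 5 ULA libraries. Tests by cell class were fitted apart from these, within 1 experiment. For PA they used the PA and PA control libraries, and for OA the OA, OA control and untreated libraries. Their estimate of the spread thus rests on fewer libraries. SE is the absolute log2 fold change, before edgeR's shrinkage, divided by the square root of F. The fold changes given are the shrunk ones, which can differ from it at low counts. An exact permutation test of 2 against 2 libraries cannot go below p = 0.333, so none was used. DESeq2 1.42.0 was an alternative. Depth ranged from 6880807 to 91184130 UMIs per library, and limits for a count of 0 (3 counts) cover counting error only.

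Each experiment was clustered by itself with scanpy 1.11.5 (2000 variable genes, 30 components, 15 neighbours, leiden resolution 0.5, no integration). A cluster took a class name with at least 3 fixed markers among its 50 leading genes, unless classes tied, another class had more among the top 10, or its cells were shallow without a leading marker. Doublets were left in the main analysis. As an alternative, the cells with the highest Scrublet scores, at 0.8% per 1000 barcodes, were removed. Replicate numbers were not taken to pair libraries, because 2 pairs per comparison allow no such reading and no label says so.

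Named genes are the 10 members, FABP6, SLC27A5 and ACSL4, and of 3 pathway lists at most the 6 largest changes past the threshold per list and comparison. The list genes named beyond that rule, and cluster values, were chosen after their values were seen. Members and lists were chosen with earlier results of these data known. The test script was tested on simulated data. One regulator of the fixed list is not reported here.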

Additional observations from a re-analysis of the deposited data

Results flagged for a closer look

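Of the 10 genes, 7 had an effect of OA that differed from that of PA in the test of the difference itself (edgeR quasi-likelihood, adjusted p under 0.05), beside 20.5% of all genes. The differences, OA minus PA on the log2 scale, were 5.61 for CD36, 5.40 for FABP2, 3.48 for ACSL5, 1.54 for SLC27A4 and 1.09 for ACSL3, and -1.58 for FABP5 and -5.89 for FABP4. The FABP4 value rests on PA replicate 2, with 144 UMIs in 0.279% of its 8249 cells where PA replicate 1 had none, and became 2.88 without it. FABP5 without that library came to -0.66. OA and PA each have their own control group, and their matrices list different numbers of genes (36601 and 33538). Headers of the OA matrices name Cell Ranger 6.0.2, where the processing notes name 3.0.2. The CD36 difference also does not compare like cells, since CD36 was read in unlike clusters in the 2 experiments. The part of these points, and of the unlike controls, in the differences was not tested.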

How the results depend on the processing

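The 7 rises under OA passed in 11 of 11 alternatives, from 6.90 to 7.99 on the log2 scale for FABP2 and from 1.20 to 1.40 for SLC27A4. Counts of changed genes moved more. For PA, 9 genes became 52 with DESeq2, 162 with no filter on low counts, 16 with only the libraries compared, and 0 to 20 when 1 library was left out. The 0 arose without either control library, where edgeR gave 514 and 688 genes at an unadjusted p under 0.05 (DESeq2 was run on all libraries only). Leaving out 1 library gave 5171 to 6570 genes for OA, 2112 to 3388 for the difference between OA and PA, 1704 to 5554 for TGFB1, and 697 to 7166 for ULA. It gave 32 to 386 for PA and 2848 to 4291 for OA outside mesenchymal-like cells, and 8 to 383 for PA in hepatocyte-like cells. There, leiden resolution 1.0 gave 8. Where this left a group with 1 library, that library was assumed to vary like the others.

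With the replicate number as a block, ULA gave 0 genes (4272 at an unadjusted p under 0.05 in edgeR, and 4883 adjusted in DESeq2 without the block), with FABP1 at -6.08 and FABP2 at -5.79. The block gave 52 genes for PA outside mesenchymal-like cells and 72 in hepatocyte-like cells, and 8117 for OA, 11 for PA and 4258 for TGFB1. Replicate differences of treated and control libraries correlated at 0.16 for PA, 0.08 for OA and -0.49 for TGFB1 over 8736 genes. With the TGFB1 numbers crossed, an alternative chosen after seeing the data, 5842 genes passed.

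Signs that reversed were all of values that had not passed in the main analysis, except for FABP4 in OA minus PA. Leaving out 1 library gave these ranges. For PA they were -5.10 to 8.81 for FABP4, -0.19 to 1.29 for FABP5, -0.35 to 0.77 for CD36, -0.57 to 0.40 for ACSL1, -0.03 to 0.45 for ACSL3 and, after rounding, 0 to 1.34 for ACSL5. For OA minus PA they were -11.09 to 2.88 for FABP4 and -0.91 to 0.06 for ACSL1, and for TGFB1 -1.49 to 0.18 for CD36. For ULA they were -0.79 to 0.43 for FABP5 and -0.76 to 0.62 for SLC27A4. For PA outside mesenchymal-like cells they were -0.20 to 1.28 for FABP5, -0.46 to 0.65 for CD36, -0.58 to 0.28 for ACSL1, -0.10 to 0.38 for ACSL3 and -0.12 to 1.27 for ACSL5. For OA outside those cells they were -6.64 to 0.69 for FABP4 and -0.47 to 0.25 for ACSL1. For PA in hepatocyte-like cells they were -0.36 to 1.01 for FABP5, -0.03 to 0.87 for SLC27A2 and -0.21 to 1.18 for ACSL1. Other settings turned ACSL1 for PA to -0.01 (DESeq2 size factors), -0.03 (DESeq2), -0.05 (doublets removed), -0.02 (only the libraries compared) and 0 after rounding (replicate block). They turned FABP5 for ULA to 0.05 (stricter cell filters) and SLC27A4 for ULA to -0.07 (replicate block). The cause was not tested.

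Of 90 group levels, 66 moved by less than 1 SD with TMM library sizes and 87 with all barcodes. OA could not be tested within hepatocyte-like cells, since each control library held 13. Low genes, FABP4 above all, are limited by their counts.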
